A study of Homo sapiens with 9 samples.

Results

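Chromosomes 4, 13 and 18 held 13386 of the 129276 open regions found by merging the peak lists of 9 ATAC-seq libraries, or 10.35%. A region is the union of peak intervals that shared at least 1 bp, so the members were selected on the presence of a peak in any of the 9 lists, without regard to treatment. Chromosome 4 gave 6872 regions, chromosome 13 gave 3563 and chromosome 18 gave 2951, against 112148 on the other 19 autosomes and 3742 on chromosomes X and Y. Their number and density are therefore a description and carry no test.

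ATAC-seq marks DNA that a transposase can reach. All 9 libraries came from 22Rv1, a human prostate carcinoma line, edited so that the splicing factor SF3B1 carries the change C1111S. The controls carried that change too, and the labels do not say whether the edited line is 1 clone. Cells were given DMSO at 0.1% (the vehicle), WX-02-23 at 20 µM or WX-02-43 at 20 µM for 3 h, with 3 libraries each, and the labels call both compounds stereoprobes. The series title concerns covalent compounds acting on FOXA1, a forkhead factor that binds closed chromatin and helps it open in prostate epithelium. The labelled tissue was not checked against prostate marker genes, since no annotation of the hg19 build was used here and regions are given without gene names.

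Open regions mark promoters, enhancers and insulators, the DNA where regulatory proteins displace nucleosomes. Chromosomes with few genes tend to sit near the nuclear periphery, in compact, late-replicating chromatin. Chromosome 18 is the textbook case of a peripheral, gene-poor chromosome in human nuclei, often contrasted with gene-rich chromosome 19. FOXA1 is known to bind mostly at distal enhancers, which also occur in stretches with few genes.

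The gene-poor label held. RefSeq (assembly GRCh38.p14, used only to count genes per chromosome) lists 770 protein-coding genes on chromosome 4, 338 on chromosome 13 and 270 on chromosome 18. These come to 4.03, 3.48 and 3.42 genes per 1 Mb bin, counting bins from the first open region to the last. They were the lowest 3 values of the 22 autosomes, and the other 19 ran from 4.86 to 24.2.

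Open regions were sparser there than on most autosomes, but less so than the genes were. The 3 chromosomes held 36.0, 36.7 and 37.4 regions per 1 Mb bin, against 45.9 over the other 19 autosomes together. Chromosome 4 had the lowest density of the 22 autosomes, while chromosomes 2 (36.5) and 9 (36.7) lay beside it at the bottom of the order. Per protein-coding gene the order turned round, which is partly fixed by the choice of chromosomes with few genes. Chromosome 18 had 10.9 regions per coding gene, chromosome 13 had 10.5 and chromosome 4 had 8.92, the highest 3 of the 22 autosomes, and chromosome 19 had the lowest, 3.11.

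**Figure D1:**
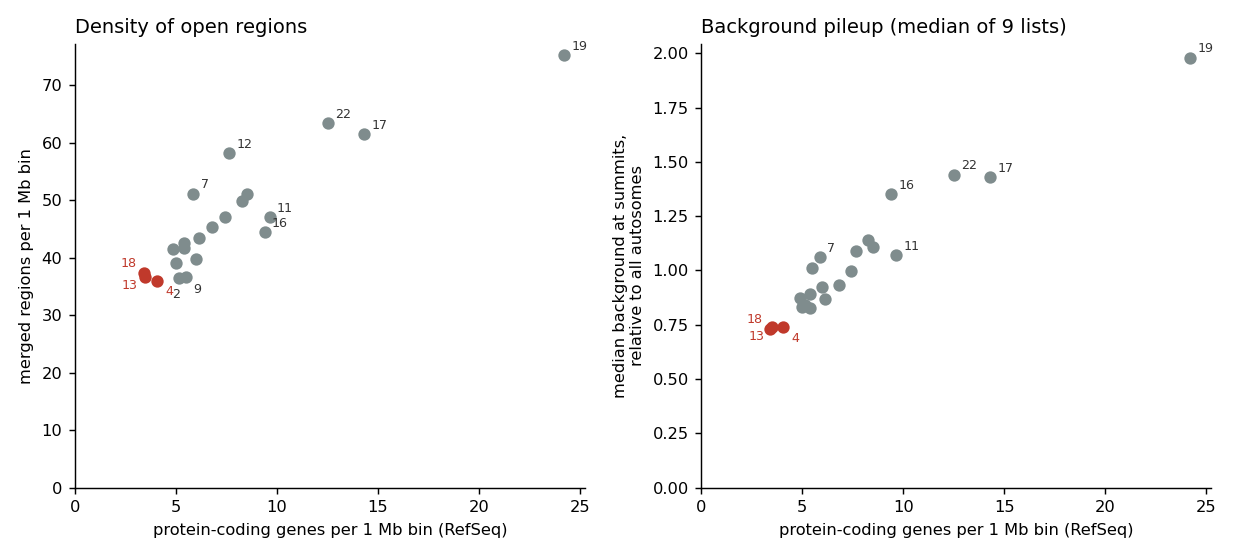
Each point is 1 autosome, with protein-coding genes per 1 Mb bin (RefSeq) on the x axis and, on the y axis, merged open regions per 1 Mb bin (left) or the median background under peak summits relative to all autosomes (right, median of 9 lists). Chromosomes 4, 13 and 18 (red) sit at the low end of both axes, with 36.0 to 37.4 regions per bin and a relative background of 0.732 to 0.74, and chromosome 19 at the high end.

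The regions were spread over nearly the whole of each chromosome. Of 367 bins, 4 held no region, a pair on chromosome 4 (50 to 52 Mb) and a pair on chromosome 18 (16 to 18 Mb), and chromosome 13 had no empty bin between its first and last region. On the other autosomes 79 of 2442 bins were empty, in runs of up to 20. Crowded bins were fewer, while nearly empty bins were not more frequent. Bins with 60 or more regions made up 8.82% of occupied bins, against 25.4% elsewhere, while bins with fewer than 10 regions made up 1.1% against 1.31%. The coefficient of variation of regions per bin was 0.447 on chromosome 4, 0.397 on chromosome 13 and 0.46 on chromosome 18. These were places 8, 4 and 10 from the lowest of the 22 autosomes. Over pooled bins it was 0.436 on these chromosomes and 0.52 on the other autosomes, which mix chromosomes of 36.5 to 75.2 regions per bin.

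The densest bin of chromosome 4 lay at 6 to 7 Mb and held 91 regions, of which 61 were in all 9 lists. On chromosome 13 it lay at 114 to 115 Mb, near the end of the chromosome, with 79 regions and 38 in all 9 lists. On chromosome 18 it lay at 55 to 56 Mb with 90 regions and 40 in all 9 lists. The densest bins of the other autosomes held between 86 and 154 regions.

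**Figure D2:**
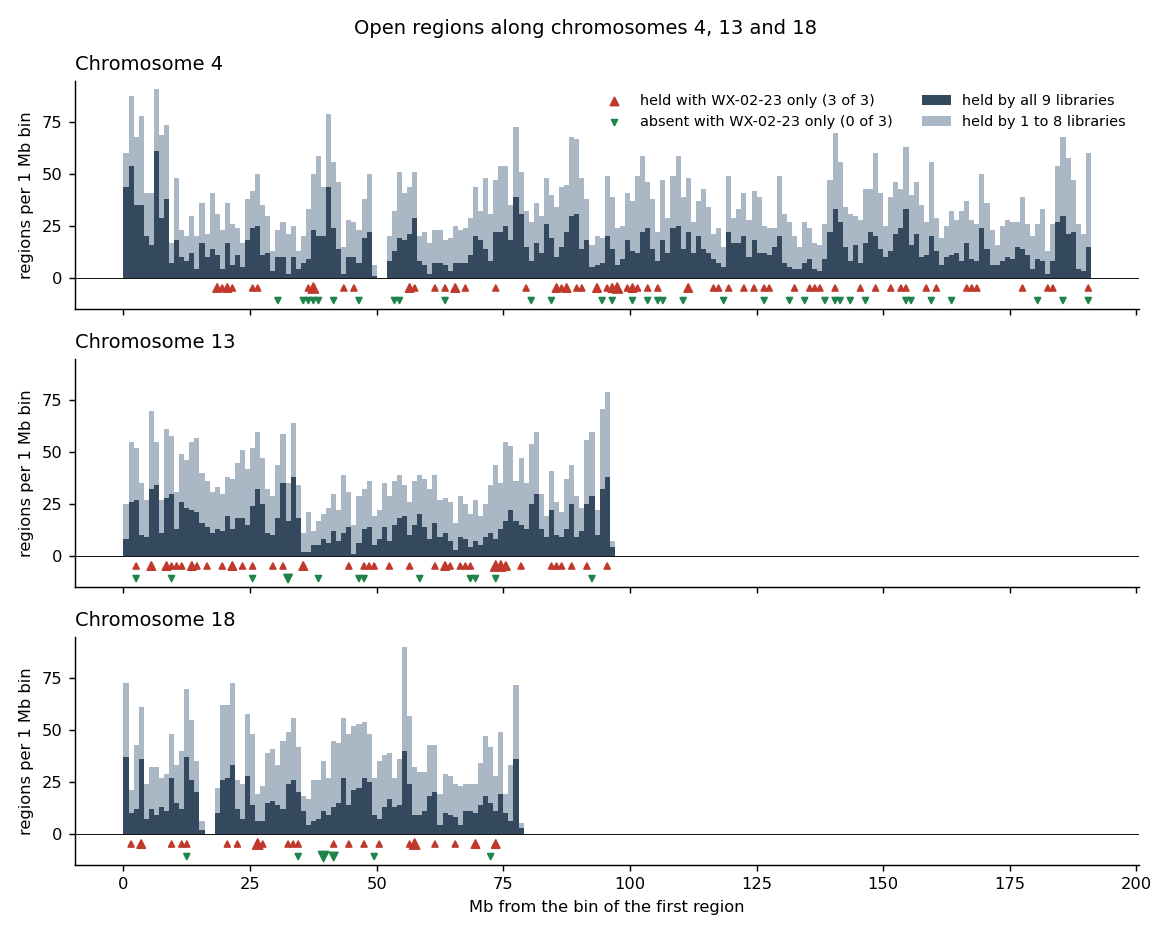
Bars give merged open regions per 1 Mb bin along each chromosome, dark for regions in all 9 lists and light for regions in 1 to 8, and the x axis is distance from the bin of the first region. Triangles mark bins with regions held by all 3 WX-02-23 libraries and none of the other 6 (red, up) or the opposite (green, down), larger for more regions; they lie along the whole length of each chromosome, with the densest bins at 91, 79 and 90 regions.

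Peaks on the 3 chromosomes had a deposited fold enrichment close to that of peaks elsewhere, yet were lower in absolute height. In the authors' lists, the fold enrichment at the summit had a median between 6.64 and 7.59 per library on these chromosomes and between 6.64 and 7.44 on the other autosomes. The log2 ratio of the 2 medians was 0.01 ± 0.03 (SD, n = 9 libraries; exact sign-flip permutation test, two-sided, p = 0.25), and it was below 0 in 6 of 9 libraries. That ratio passed the same exact test, on the high side, when only peaks with a −log10 q of at least 5 were kept (0.02, p = 0.0156), with lists of equal length (0.03, p = 0.00391) and in regions held by all 9 lists (0.06, p = 0.00391).

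Significance and width were lower in every library. The median −log10 q ran from 11.3 to 13.2 on chromosomes 4, 13 and 18 and from 12.5 to 14.6 elsewhere, a log2 ratio of -0.18 ± 0.04 (SD, n = 9; exact sign-flip permutation p = 0.00391, the smallest the test can give, adjusted over 3 measures 0.00586). Median width ran from 305 to 319 bp against 319 to 333 bp, a log2 ratio of -0.06 ± 0.01 (SD, n = 9; exact sign-flip permutation p = 0.00391, adjusted 0.00586). Neither ratio differed detectably among treatments, with exact permutation p between 0.3 and 0.9 for the 3 pairs of groups in either measure. The fold ratio averaged -0.005 with WX-02-23, 0.029 with DMSO and 0.017 with WX-02-43 (n = 3 each), and the exact permutation p of WX-02-23 against either group was 0.1, the smallest that 3 against 3 can give (0.45 adjusted over the 9 pairs).

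The pileup at each summit, meaning the number of stacked fragments, and the background under it were solved from the deposited fold and p. The fold was taken as their ratio with a constant added to each, which weighs more where the background is low. The median summit pileup per library was 18 to 21 fragments on the 3 chromosomes and 22 to 25 on the other autosomes. The median background was 1.35 to 1.74 fragments against 1.87 to 2.44, a log2 ratio between -0.517 and -0.441 in the 9 libraries. For the median pileup the log2 ratio was between -0.322 and -0.252. The plain ratio of median pileup to median background was thus higher on the 3 chromosomes in each library. Relative to all autosomes the background stood at 0.732 on chromosome 18, 0.739 on chromosome 4 and 0.74 on chromosome 13, the lowest 3 of the 22. Summit height stood at 0.833 on each of the 3, also the lowest value of the 22. Copy number of the 22Rv1 chromosomes was not analysed here, and its part in these levels was not tested.

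The regions that stood highest in all 9 lists had similar values in the 3 treatments. On chromosome 4 the strongest, chr4:39183613-39184646 (hg19, as all coordinates here), had folds of 17.6, 18.7 and 18.6 with DMSO, 17.1, 18.7 and 17.5 with WX-02-23 and 18, 16.9 and 16.8 with WX-02-43. The 3 groups overlapped. On chromosome 13 the strongest was chr13:50017800-50019398, with folds from 11.3 to 13.3 over the 9 libraries and a pileup of 134 to 163 fragments. On chromosome 18 it was chr18:47813752-47814790, with folds from 12.6 to 14.6 and a pileup of 109 to 137 fragments. The widest region held by all 9 was chr4:140097220-140099715, 2496 bp long, where the fold stayed between 6.29 and 7.03. The widest on chromosome 13 (chr13:113862454-113864536) lay in the bin beside that chromosome's densest one, and the widest on chromosome 18 was chr18:8704068-8706150.

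Replicates shared fewer of their peaks on these chromosomes. The share of a library's peaks found in both other libraries of its group was 89.1%, 78.4% and 67.2% for DMSO replicates 1 to 3, 68.6%, 81.7% and 83.4% for WX-02-23 and 88.5%, 73.9% and 70.8% for WX-02-43. On the other autosomes the same share ran from 71.7% to 90.6%, and it was higher there in 9 of 9 libraries, by 1.5 to 4.5 percentage points. The 9 values share lists within a group and were not tested. The gap was smaller among peaks of like strength. Within 4 equal classes of each list by −log10 p, from weakest to strongest, the median share was 41.3%, 79.9%, 98.8% and 100% on the 3 chromosomes and 42.1%, 81.1%, 99.2% and 100% elsewhere.

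Over the 13386 regions, 5494 (41.0%) were in all 9 lists and 2390 (17.9%) were in 1 list, against 47.0% and 16.3% on the other autosomes. For regions in all 9 lists the 3 chromosomes were the lowest of the 22 autosomes (40.6% to 41.4%), followed by chromosome 8 (43.0%). For regions in 1 list, chromosomes 7, 8 and 21 (18.1%, 18.6% and 19.5%) stood above chromosomes 4 and 18 (17.8% and 17.4%). On the 3 chromosomes, regions in 1 list had a median width of 166 bp and regions in all 9 one of 605 bp. Bins were put in 4 classes by how many regions in all 9 lists they held, so the share of such regions rises over the classes by construction, and only values within a class are compared. Bins with 5 to 14 such regions made up 50.1% of occupied bins on the 3 chromosomes and 30.6% elsewhere, and bins with 30 or more made up 7.99% against 24.5%. The share of regions in all 9 lists was 18.9% on the 3 chromosomes and 21.2% elsewhere in the class of 0 to 4, and 34.3% and 34.9% in the class of 5 to 14. It was 45.0% and 44.8% in the class of 15 to 29, and 52.6% and 55.4% in the class of 30 or more.

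Base by base, lists of the same treatment overlapped on chromosomes 4, 13 and 18 with a mean Jaccard index (shared bases over covered bases) of 0.693 for DMSO, 0.688 for WX-02-23 and 0.69 for WX-02-43. WX-02-43 lists overlapped DMSO lists about as much, at 0.689. WX-02-23 lists overlapped DMSO lists at 0.656 and WX-02-43 lists at 0.658, below all 3 within-treatment means. In all 36 pairs of libraries the index was lower on these chromosomes than on the other autosomes, with differences from -0.0506 to -0.0204. On the other autosomes the between-treatment means were 0.697 for WX-02-23 with either group and 0.719 for WX-02-43 with DMSO. The pairs share libraries, so these means are given without a test.

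The 3 chromosomes took a slightly larger share of the deposited peaks after either compound than with DMSO, but not beyond the spread between libraries. Their share of a library's autosomal peaks was 9.70%, 9.83% and 10.14% with DMSO, 10.38%, 10.13% and 10.10% with WX-02-23 and 10.01%, 10.31% and 10.32% with WX-02-43. The highest DMSO library exceeded the lowest library of each treated group, so the groups overlapped. Means were 9.89 ± 0.23%, 10.20 ± 0.15% and 10.21 ± 0.18% (SD, n = 3 each; exact permutation test over 280 partitions, p = 0.164, adjusted over 4 shares 0.221).

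WX-02-23 exceeded DMSO by 0.32 percentage points, with a 90% interval from -0.04 to 0.69 (exact permutation p = 0.3, adjusted over 12 pairs 0.45). WX-02-43 exceeded DMSO by 0.32 points too, with an interval from -0.13 to 0.62 (exact permutation p = 0.2, adjusted 0.45). The compounds, at the same dose and time, differed from each other by -0.01 points (WX-02-23 minus WX-02-43), with an interval from -0.22 to 0.38 (exact permutation p = 1.0, adjusted 1.0). With 3 libraries against 3, no p can fall below 0.1. Whether the replicates came from separate cultures is not in the labels, so every p-value here measures the spread between these libraries, which may be technical.

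In the deposited lists, chromosome 13 separated WX-02-23 from DMSO. Its share was 2.58%, 2.64% and 2.69% with DMSO and 2.78%, 2.75% and 2.74% with WX-02-23, with no overlap, and the difference of 0.12 points had a 90% interval from 0.05 to 0.20 (exact permutation p = 0.1, the smallest possible, adjusted 0.45). WX-02-43 gave 2.66%, 2.76% and 2.75%, overlapping both. Across the 3 groups chromosome 13 had an exact permutation p of 0.0571 (adjusted 0.221). In order of relative change from DMSO among the 22 autosomes, chromosomes 13, 18 and 4 took places 1 to 3 for WX-02-23, at 4.53%, 3.16% and 2.53%. For WX-02-43 the same 3 led, at 3.32%, 3.01% and 3.35%. Both comparisons share the DMSO libraries, and within each group the share of the 3 chromosomes together rose with list length. Lists held 82110, 90387 and 101235 peaks for DMSO replicates 1 to 3, 105357, 92481 and 90842 for WX-02-23 and 82483, 94696 and 97836 for WX-02-43.

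With every list shortened to the length of the shortest by −log10 p, the mean shares of the 3 chromosomes together moved closer to DMSO with both compounds. WX-02-43 libraries (9.99% to 10.04%) then lay above every DMSO (9.70% to 9.97%) and WX-02-23 library (9.83% to 9.96%). WX-02-43 exceeded DMSO by 0.20 points, with a 90% interval from 0.02 to 0.34. WX-02-23 minus WX-02-43 was -0.10 points, with an interval from -0.21 to -0.03. Both had an exact permutation p of 0.1, the smallest possible (adjusted 0.4). The mean shares were 9.81%, 9.91% and 10.01% for DMSO, WX-02-23 and WX-02-43 (n = 3 each; exact permutation p = 0.0607, adjusted 0.243). The relative change of chromosome 4 with WX-02-23 then stood in place 10 of 22, at 0.32%, and that of chromosome 18 in place 5, at 0.47%. Chromosome 13 was in place 1 for either compound, at 2.76% with WX-02-23 and 3.58% with WX-02-43, but its groups now overlapped. Its equal-length shares were 2.58%, 2.67% and 2.63% with DMSO and 2.69%, 2.65% and 2.76% with WX-02-23, a difference of 0.07 points with a 90% interval from -0.03 to 0.18 (exact permutation p = 0.2, adjusted 0.4).

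**Figure D3:**
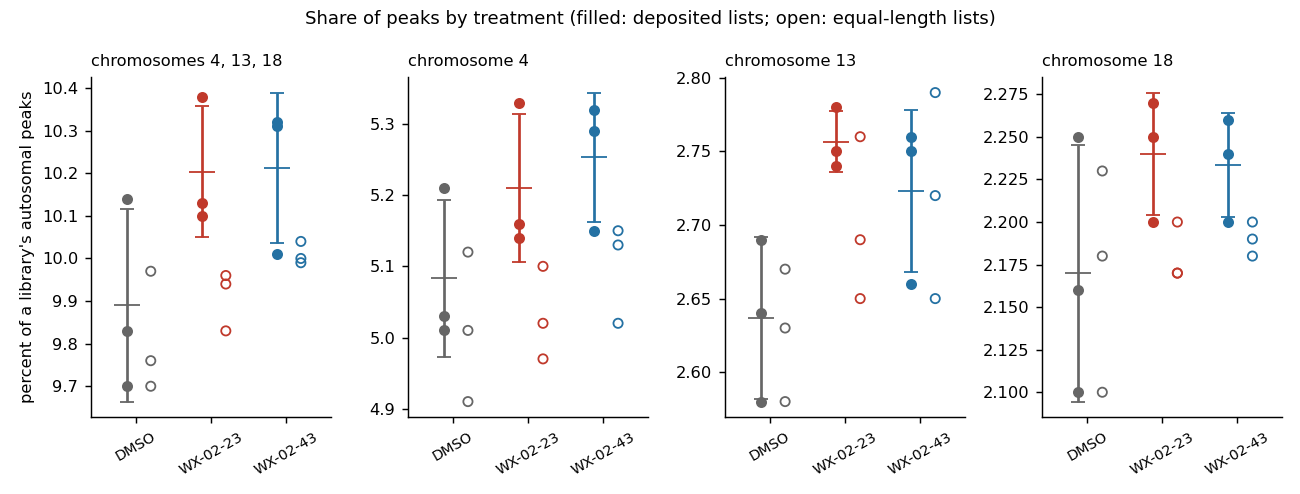
Points give each library's share of autosomal peaks (percent, y axis, not starting at 0) on the 3 chromosomes together and on each alone, filled for the deposited lists with the group mean and SD, and open for lists of equal length. For the 3 chromosomes together the filled points of DMSO and the treated groups overlap. The open WX-02-43 points there (9.99% to 10.04%) lie above the open DMSO points (9.70% to 9.97%). On chromosome 13 the filled WX-02-23 points (2.74% to 2.78%) lie above the filled DMSO points (2.58% to 2.69%).

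At the scale of 1 Mb, a few bins held more peaks with WX-02-23 than with DMSO, and none passed the test with fewer. Peaks per bin, scaled to list length, were compared by limma over 2693 autosomal bins. Of 361 bins tested on chromosomes 4, 13 and 18, 7 passed at an adjusted p of 0.05 for WX-02-23 against DMSO (1.94%, against 0.965% of all autosomal bins), all with more peaks after the compound. They were spread over chromosome 4 (2 bins), chromosome 13 (3 bins) and chromosome 18 (2 bins). At an unadjusted p under 0.05, 57 bins (15.8%, against 15% of all) stood out, 48 of them higher. The median log2 difference was 0.05 over the tested bins of the 3 chromosomes and 0 over the others, and 62.6% of bins against 49.6% lay above 0. With lists of equal length these shares were 54.5% and 49.5%, with a median of 0.02 on the 3 chromosomes. At a −log10 q of at least 5 they were 53.9% and 50%.

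The bin at 35 to 36 Mb of chromosome 13 had the lowest p on these chromosomes. Its DMSO lists held 16, 17 and 20 peaks, its WX-02-23 lists 30, 25 and 25, and its WX-02-43 lists 18, 21 and 23. Every WX-02-23 library lay above every other one, and the log2 difference from DMSO was 0.50 ± 0.10 (SE; limma, adjusted p = 0.0124). Of 36 regions in it, 14 were in all 9 lists and 3 were held by all WX-02-23 and no DMSO library. The bin at 37 to 38 Mb of chromosome 18 came next, with 7, 9 and 12 peaks for DMSO, 20, 16 and 13 for WX-02-23 and 12, 15 and 15 for WX-02-43. Here the treated groups overlapped each other and DMSO stood lower than WX-02-23, by 0.71 ± 0.15 on the log2 scale (SE; limma, adjusted p = 0.0161), and WX-02-43 stood above DMSO by 0.58 (SE 0.15; limma, adjusted p = 0.227).

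The other 5 bins are named after their values were seen, and each lay close to the threshold. On chromosome 4 the bin at 97 to 98 Mb held 8, 8 and 12 DMSO peaks against 18, 14 and 15, and the bin at 18 to 19 Mb held 15, 14 and 20 against 25, 27 and 20 (limma adjusted p = 0.0456 and 0.0486). On chromosome 13 they were the bins at 92 to 93 Mb and 86 to 87 Mb, and on chromosome 18 the bin at 57 to 58 Mb, with log2 differences of 0.50, 0.56 and 0.53 and limma adjusted p of 0.0485, 0.0486 and 0.0486. In the bin at 97 to 98 Mb 4 regions were gained and none was lost. Single libraries weighed heavily on this count. It was 0 without DMSO replicate 2 or without WX-02-23 replicate 1, 2 without DMSO replicate 1 or without WX-02-43 replicate 2, 3 and 4 without WX-02-23 replicate 2 or 3, and 11 or 12 without WX-02-43 replicate 3, WX-02-43 replicate 1 or DMSO replicate 3. With lists of equal length the count on the 3 chromosomes was 2 of 358 bins, against 19 of 2682 over all autosomes, so the higher share was not seen there. With peaks at a −log10 q of at least 5 it was 0 of 358, against 3 of 2688.

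WX-02-43 against DMSO gave 1 bin (0.277%, against 0.111% of all autosomal bins), at 65 to 66 Mb of chromosome 13. DMSO lists held 11, 12 and 16 peaks there, WX-02-43 lists 18, 20 and 23 and WX-02-23 lists 22, 17 and 18, so both treated groups lay above DMSO (log2 difference for WX-02-43 0.63 ± 0.12, SE; limma, adjusted p = 0.0131). At an unadjusted p under 0.05 there were 28 bins (7.76%, against 8.87% of all). The call was lost without any 1 of DMSO replicates 1 and 2 or the 3 WX-02-43 libraries. Above 0 lay 68.4% of bins on the 3 chromosomes and 54.4% of the others. With lists of equal length these shares were 61.2% and 49.5%, and at a −log10 q of at least 5 they were 56.7% and 51.1%. For WX-02-23 against WX-02-43 limma called no bin (0% of all), and 44 bins (12.2%, against 9.99% of all) had an unadjusted p under 0.05, 22 in each direction. The lowest p belonged to the bin at 92 to 93 Mb of chromosome 13, with 37, 25 and 29 peaks for WX-02-23 and 16, 20 and 23 for WX-02-43 (log2 difference 0.54, limma adjusted p = 0.107). With single libraries left out, its limma adjusted p ran from 0.0264 (without DMSO replicate 3, outside this contrast) to 0.324 (without WX-02-43 replicate 1). Next was 39 to 40 Mb of chromosome 18, where WX-02-23 stood lower, by -0.40 (limma adjusted p = 0.121).

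**Figure D4:**
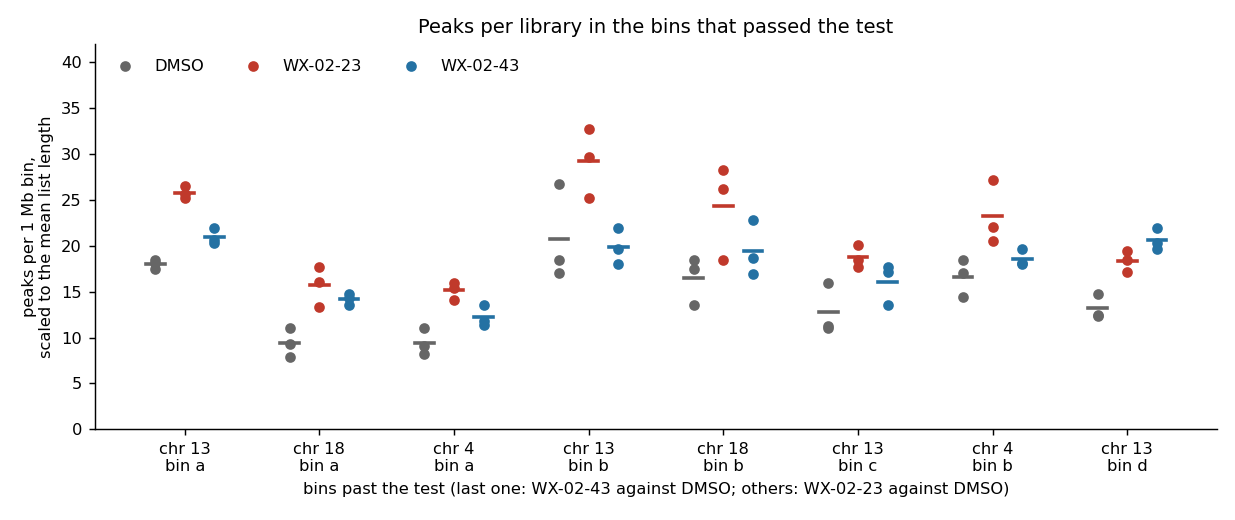
Points give the peaks of each library, scaled to the mean list length, in the 8 bins that passed limma's test, with bars for group means. From the left they are chromosome 13 at 35 to 36 Mb (bin a), chromosome 18 at 37 to 38 Mb, chromosome 4 at 97 to 98 Mb, chromosome 13 at 92 to 93 Mb (b), chromosome 18 at 57 to 58 Mb, chromosome 13 at 86 to 87 Mb (c), chromosome 4 at 18 to 19 Mb and, for WX-02-43 against DMSO, chromosome 13 at 65 to 66 Mb (d); the DMSO mean is the lowest in each but chromosome 13 at 92 to 93 Mb, where WX-02-43 is lower.

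More single regions were gained and lost with WX-02-23 than with WX-02-43. A region was counted as gained if all 3 libraries of the first group and none of the second held a peak there, and as lost in the opposite case; such counts carry no test, and a missing peak means a signal under the caller's threshold. Against DMSO, WX-02-23 gained 309 regions on chromosomes 4, 13 and 18 (2.46% of those held by any of the 6 libraries, against 1.85% over all autosomes) and lost 109 (0.866%, against 0.774%). WX-02-43 gained 68 (0.573%, against 0.361%) and lost 34 (0.287%, against 0.408%). The comparisons share the DMSO libraries. Set directly against WX-02-43, WX-02-23 gained 228 regions (1.79%, against 1.52%) and lost 135 (1.06%, against 0.85%). Against the other 6 libraries together it gained 151 (1.13%, against 0.903%) and lost 57 (0.426%, against 0.363%).

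Gained regions made up 73.9% of calls on the 3 chromosomes for WX-02-23 against DMSO (70.5% over all autosomes), and 58.8% with lists of equal length (55.3%). For WX-02-23 against WX-02-43 the shares were 62.8% (64.1%) and 50% (51.3%), and against the other 6 they were 72.6% (71.3%) and 58.4% (57.4%), so in each the 3 chromosomes stood near the autosomes as a whole. For WX-02-43 against DMSO the shares were 66.7% (47.0%) and 54.5% (46.9%), where the other autosomes had 341 gained and 428 lost regions. That lead of gained regions turned with the settings, to 33 gained and 54 lost at a −log10 q of at least 5, and to 52 and 54 where 50% of a region had to be covered. Counts grow when a library is left out, since fewer libraries must then meet the rule. The 309 became 550 without DMSO replicate 3 and 506 and 528 without WX-02-23 replicates 2 and 3, and the 68 became 267 without WX-02-43 replicate 1. Region counts over all autosomes with libraries left out are not given here.

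Chromosome 13 had the highest percentage of gained regions among the 22 autosomes for WX-02-23, at 2.77% against DMSO (93 regions), 2.19% against WX-02-43 (74) and 1.38% against the other 6 libraries (49). Chromosome 4 was 2nd of the 22 against DMSO, for gained regions (2.47%, 159) and for lost ones (1.01%, 65). Chromosome 18 stood 8th for gained regions with WX-02-23 (2.05%, 57) and 1st with WX-02-43 (0.95%, 25). That lead of chromosome 18 was not seen with lists of equal length, where it held 0.567% and chromosome 13 held 0.69%.

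The same 4 classes of bin set the 3 chromosomes beside the other autosomes. Regions in all 9 lists define the classes and cannot be gained or lost, so part of any trend over the classes is fixed by construction. For WX-02-23 against DMSO, gained regions made up 4.95% of regions in bins with 0 to 4 regions in all 9 lists, 3.2% in bins with 5 to 14, 2.08% with 15 to 29 and 1.09% with 30 or more. The other autosomes gave 3.89%, 3.02%, 2.03% and 0.923% in the same classes. Lost regions stayed between 0.495% and 0.985% on the 3 chromosomes over these classes, and between 0.616% and 0.952% on the other autosomes. For WX-02-43 against DMSO the gained percentage was 0.868% in the class of 5 to 14 and 0.108% in the class of 30 or more, on 39 and 2 regions. The lost percentage was 0.156% and 0.592%, on 7 and 11 regions. The other autosomes changed in the same direction between these classes, with 0.617% and 0.175% gained and 0.275% and 0.593% lost. The part of bin makeup in the higher percentages of chromosomes 4 and 13 was not tested beyond these classes.

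**Figure D5:**
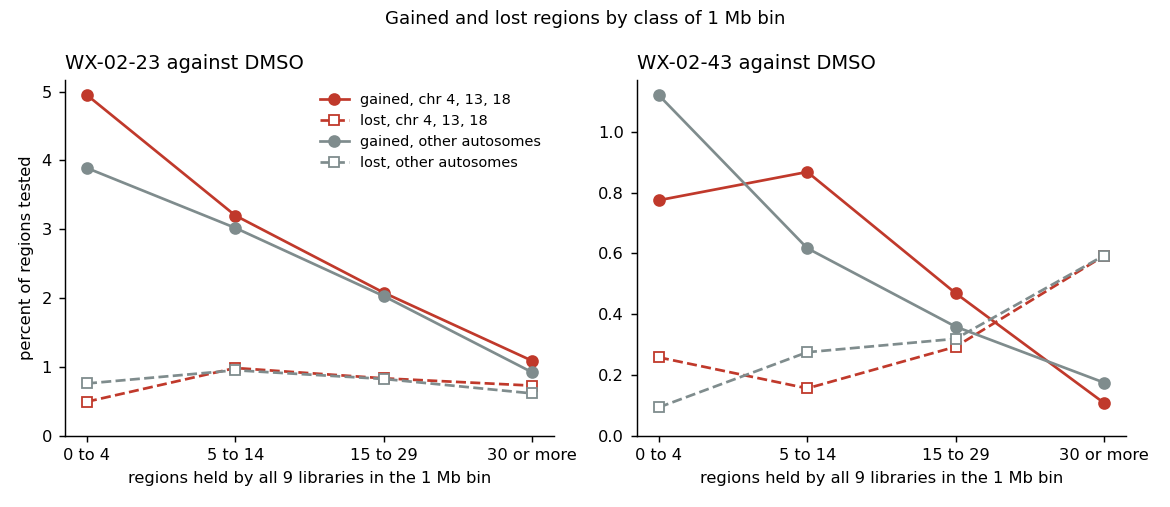
Lines give the percent of tested regions (y axis) that were gained (filled) or lost (open) against DMSO, by the number of regions in all 9 lists in the same 1 Mb bin (x axis), for chromosomes 4, 13 and 18 (red) and the other autosomes (grey); the panels have different y scales. With WX-02-23 the red and grey gained points of a class are at 4.95% and 3.89%, 3.2% and 3.02%, 2.08% and 2.03%, and 1.09% and 0.923%, and the slope over the classes is partly fixed by how they are made.

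Called regions were mostly weak peaks. Folds per region were averaged over every library that held a peak there, including libraries outside the comparison. The median fold of regions gained with WX-02-23 against DMSO was 5.87 and their median pileup 12.7 fragments. Mean folds per region ran from 3.51 to 14.9. For lost regions the medians were 5.86 and 13.7. On the other autosomes the same medians were 5.75 and 13 for gained, and 5.56 and 14.3 for lost regions. Gained and lost regions had median widths of 339 and 343 bp.

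The region of strongest gain by rank was chr13:105137888-105138519, 632 bp long, in a bin of 21 regions. WX-02-23 libraries held it with folds of 15.5, 13.7 and 15.4 and pileups of 45, 33 and 40 fragments (fold 14.9 ± 1.02, SD, n = 3), and no DMSO or WX-02-43 library held a peak there. chr13:40590949-40591564 was also held by WX-02-23 alone, with folds of 9.81, 10.0 and 10.8. On chromosome 4 the regions held by WX-02-23 alone were led by chr4:100078579-100078882 (folds 9.54, 9.73 and 9.54) and chr4:127375150-127375669 (9.01, 12.4 and 12.2). On chromosome 18 they were led by chr18:65776366-65776769 (10.3, 7.73 and 10.9) and chr18:41514124-41514550 (5.83, 5.16 and 5.87).

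Some of the strongest gains over DMSO were present at a lower level with WX-02-43. chr18:37004115-37004623 lies in the bin of chromosome 18 that passed the test, and WX-02-23 libraries held it with folds of 15.4, 14 and 14 and pileups of 35, 29 and 29. WX-02-43 libraries held it with folds of 8.11, 4.61 and 5.81 and pileups of 17, 10 and 13, and no DMSO library held it. chr18:42213907-42214428 had the same pattern, with folds of 14, 12.5 and 12.8 for WX-02-23 and 7.2, 4.61 and 6.22 for WX-02-43. The highest WX-02-43 fold lay well below the lowest WX-02-23 fold at each. Both regions were picked by their rank in the WX-02-23 lists, so part of that gap is fixed by the choice. On chromosome 4, chr4:148492238-148492780 (folds 11.5, 13 and 12.1) was held by 1 WX-02-43 library at 4.98, and chr4:95772842-95773364 (11.4, 10.4 and 10.5) by 2, at 4.61 and 5.39. chr13:67660335-67660895, gained against WX-02-43 with folds of 12.1, 15.4 and 12.1, was held by 1 DMSO library at 5.38.

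The leading regions lost with WX-02-23 were nearly all held by every DMSO and WX-02-43 library, which the rule asked of those lost against the other 6. Of the 109 regions lost against DMSO, 57 met that. chr4:80053880-80054370 had folds of 10.7, 11 and 9.86 with DMSO and 10.4, 8.81 and 11.2 with WX-02-43, and no WX-02-23 library held a peak. At chr18:34687998-34688442 the folds were 8.4, 11 and 10.8 with DMSO and 9.46, 10.5 and 10.4 with WX-02-43, again with no WX-02-23 peak. chr13:88777117-88777790 spread more, from 7.47 to 13.1 with DMSO and from 8.56 to 12.9 with WX-02-43. chr4:84246462-84246866, chr13:51383879-51384216, chr13:87994261-87994734 and chr18:41761988-41762688 were likewise held by all 6 DMSO and WX-02-43 libraries and by none given WX-02-23. chr4:134808890-134809338 was held by the same 6 libraries, with a mean fold of 7.3 ± 2.23 with DMSO and 9.82 ± 1.67 with WX-02-43 (SD, n = 3 each), and chr13:40917916-40918576 by 5 of them. Where at least 50% of a region had to be covered, the calls at chr13:88777117-88777790, chr13:87994261-87994734, chr13:40917916-40918576 and chr18:41761988-41762688 were not kept.

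The leading regions for WX-02-43 against DMSO were weaker. chr4:137785765-137786050 had WX-02-43 folds of 6.3, 6.71 and 5.81 and was held by 2 WX-02-23 libraries at 5.99 and 4.76. chr13:65639725-65640072, in the bin that passed the test for WX-02-43, had folds of 6.3, 6.29 and 7.05, and chr18:56247380-56247648 had 6.3, 6.84 and 5.96 and was held by all 3 WX-02-23 libraries. Lost with WX-02-43 were chr4:115387480-115387776, chr13:45968180-45968452 and chr18:25723748-25724055, with mean DMSO folds of 7.30, 6.04 and 6.82 (n = 3 each). The last 2 were absent from WX-02-23 lists as well.

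Gains and losses were scattered along the chromosomes. The 73 regions of chromosome 4 gained with WX-02-23 against the other 6 libraries fell in 59 of its 189 occupied bins, and the 35 lost ones in 35 bins. On chromosome 13, 49 gained regions fell in 38 of 97 bins and 13 lost ones in 12. On chromosome 18, 29 gained regions fell in 22 of 77 bins and 9 lost ones in 6. No bin held more than 3 of either kind. A bin of each chromosome reached 3 gained regions, at 37 to 38 Mb of chromosome 4, 92 to 93 Mb of chromosome 13 and 26 to 27 Mb of chromosome 18, each tied with another bin. The bin at 39 to 40 Mb of chromosome 18 held 3 lost regions and no gained one, and the bin at 51 to 52 Mb of chromosome 13 held 2 lost.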

How the data were processed

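The labels' protocols name an Active Motif ATAC-seq kit. Per the submitters' processing notes, Bowtie2, MACS2 and the build hg19 were used, with versions, settings and any control library not given in the sources used here. A list was deposited for every library, with no pooling. The authors' deposited lists (82110 to 105357 peaks) give per peak a score, a fold enrichment, a −log10 p and a −log10 q. The fold was read as a linear ratio of pileup to local background, with a constant added to each. These are the authors' own values, set within a list. The deposited score repeats the −log10 q and was not used. The lowest −log10 q was 2 and the shortest peak 150 bp. Read totals were not analysed, so depth is described by the pileup that, under the Poisson formula of MACS2, gave the deposited −log10 p within 0.002, found for 100% of summits.

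Python 3.11.15 (numpy 2.4.6, pandas 2.3.3, scipy 1.17.1) and limma 3.58.1 in R 4.3.3 were used. Regions were assigned to 1 Mb bins by midpoint and peaks by summit. limma (eBayes with a trend, 9 libraries) was fitted to log2 of peaks per bin plus 0.5, scaled to the library's autosomal peaks, in bins with a mean of at least 5 peaks, with Benjamini-Hochberg adjustment over all autosomal bins. Counting and fits were tested on simulated data. Regions are named by rule: those ranking first by their lowest standing in −log10 q among the lists required to hold them, per chromosome, comparison and direction, with the strongest, the widest and the extreme bins, and 2 bins of lowest p per contrast. Chromosomes, rules and tests were chosen with earlier results of these data known. Coordinates count from 1. Gene names and motifs, which need an hg19 genome, were not analysed here.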

Additional observations from a re-analysis of the deposited data

How the results depend on the processing

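Of 109 other values computed for the shares, strength ratios, region counts and bin counts, before leaving out libraries, 81 kept their direction and side of the threshold or stayed within 1.5 times. The difference in share between WX-02-23 and WX-02-43 changed sign to 0.01 points at a −log10 q of at least 5. It ran from -0.11 to 0.05 with single libraries left out, positive without WX-02-23 replicate 2 (0.03) or 3 (0.05) and without WX-02-43 replicate 2 (0.04) or 3 (0.05), and those from DMSO ran from 0.22 to 0.44 (WX-02-23) and from 0.23 to 0.45 (WX-02-43). The fold ratio passed at 0.02, 0.03 and 0.06, as given above. For WX-02-43 against DMSO, gained regions were 33 and lost ones 54 at a −log10 q of at least 5, and lost ones 54 where 50% of a region had to be covered. Without chromosome 4, gained and lost regions were 150 and 44 for WX-02-23 against DMSO, 41 and 12 for WX-02-43 against DMSO, 123 and 62 for WX-02-23 against WX-02-43 and 78 and 22 against the other 6. Without chromosome 18, WX-02-43 gained 43. Chromosome 4 held 6872 of the 13386 regions, so a smaller set is part of these lower counts. Against DMSO, WX-02-23 gained 2.47%, 2.77% and 2.05% of tested regions on chromosomes 4, 13 and 18 (1.85% over all autosomes). WX-02-43 gained 0.443%, 0.512% and 0.95% (0.361%).

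Leaving out single libraries, gained and lost regions ran from 328 to 550 and from 133 to 257 for WX-02-23 against DMSO, from 82 to 267 and from 50 to 163 for WX-02-43 against DMSO, from 266 to 429 and from 170 to 337 for WX-02-23 against WX-02-43, and from 153 to 284 and from 58 to 132 against the other 6 libraries. Beyond those named above, counts moved by over 1.5 times for lost regions of WX-02-23 against DMSO (257 and 181 without DMSO replicates 1 and 2, 230 without WX-02-23 replicate 1) and against WX-02-43 (287 without WX-02-23 replicate 1, 337 with WX-02-43 replicate 1 left out). Gained regions against WX-02-43 were 401, 429 and 381 without WX-02-23 replicates 2 and 3 and WX-02-43 replicate 3. Against the other 6, gained regions were 262 and 284 without WX-02-23 replicates 2 and 3, and lost ones 87 without DMSO replicate 1 and 132 without WX-02-23 replicate 1. For WX-02-43 against DMSO, gained regions were 116, 209, 120 and 107 without DMSO replicates 2 and 3 and WX-02-43 replicates 2 and 3. Lost ones were 163, 82 and 53 without DMSO replicates 1 to 3, and 83 and 100 without WX-02-43 replicates 2 and 3.

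Bins called for WX-02-23 against DMSO numbered 12 of 361 with a pseudocount of 2 peaks (45 of 2693 over all autosomes). They numbered 3 of 363 with no filter on bins (11 of 2726) and 3 of 212 with a mean of at least 20 peaks (7 of 2000). At a −log10 q of at least 5 they were 0 of 358 (3 of 2688) and in bins of 0.5 Mb 2 of 703 (19 of 5304). With lists of equal length they were 2 of 358 (19 of 2682), and with single libraries left out from 0 to 12. For WX-02-43 against DMSO the 1 bin became 0 with a mean of at least 20 peaks, at a −log10 q of at least 5, in bins of 0.5 Mb and with lists of equal length, and from 0 to 1 with libraries left out. For WX-02-23 against WX-02-43, 1 bin was called in bins of 0.5 Mb and from 0 to 1 with libraries left out (1 without DMSO replicate 3). The causes were not tested. With the replicate number as a block, bins called for WX-02-23 against DMSO fell from 7 to 3 (from 26 to 10 over all autosomes). Deviations of same-numbered libraries over the bins correlated between -0.252 and 0.253 (9 pairs) and those of other pairs between -0.306 and 0.208. Same-numbered pairs of DMSO with WX-02-43 gave 0.253, -0.023 and 0.248, and those of WX-02-23 with either group ran from -0.252 to -0.011. With 3 libraries per group these values cannot settle whether the numbers pair the samples, so neither count of bins is preferred. Of 42 named region calls (26 regions), 42 were kept at a −log10 q of at least 5, with lists of equal length and with summit windows of 100 bp each side, and 34 where 50% of a region had to be covered. The summit pileup, 18 to 21 fragments at the median here, limits what could be called: a region near the threshold can miss a list by a few fragments.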
